A study of Homo sapiens with 3 samples.

Results

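The miR-30 family was described here through 7 mature miRNAs of the 1149 listed in the deposited table, namely hsa-miR-30a-5p, hsa-miR-30b-5p, hsa-miR-30c-5p, hsa-miR-30d-5p and hsa-miR-30e-5p, all 5p arms, and the 3p arms hsa-miR-30a-3p and hsa-miR-30e-3p. The species prefix hsa is left out below except where a member is first described. The members were chosen by name, though with earlier results of these data known, and all 7 were found in all 3 libraries. They were measured by small RNA sequencing in CAL-27, a long-established cell line grown from a human tongue squamous carcinoma. CC was untreated, the library labelled Mock came, as the design text has it, from cells given 1 X-ray exposure of 2 Gy, and RR was radioresistant after daily exposures of 2 Gy in 2 cycles of 5 days, each followed by 2 weeks of recovery. All 3 were clones of the same parental line, and whether a library came from 1 clone or from several is not stated in the labels. There was 1 library per group, so no difference has a replicate check, no p-value is given, and every interval compares libraries rather than conditions. The treatment tags leave some doubt about which of Mock and RR is which, since the tag that names a 2 Gy dose stands on RR, so Mock and RR refer throughout to the libraries labelled so.

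A miRNA is cut from a hairpin whose 2 arms, 5p and 3p, can each be loaded into an Argonaute protein, and the arm that is mostly loaded is called the guide strand. Target mRNAs are recognised mainly through the seed, bases 2 to 8 of the loaded arm, so arms with the same seed share most predicted targets. In the miR-30 family the 5p arm is usually taken as the guide. Its best known targets include the autophagy gene BECN1, the epithelial-mesenchymal transition factor SNAI1 and the integrin gene ITGB3, and the family is known as a brake on mesenchymal change in epithelial cells. The 5p members are called guide strands below by that usage only. Loading was not measured, and for miR-30a and miR-30e the 3p arm gave more reads.

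The mature sequences of 5 members, as listed with the levels, are shown because the results turn on how alike the arms are and on which arm of a hairpin was read. They are written 5′ to 3′ with the seed in capitals, and each was identical to its RefSeq entry (GRCh38.p14) once U was written as T.
miR-30a-5p: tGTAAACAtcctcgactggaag
miR-30e-5p: tGTAAACAtccttgactggaag
miR-30c-5p: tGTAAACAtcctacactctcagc
miR-30a-3p: cTTTCAGTcggatgtttgcagc
miR-30e-3p: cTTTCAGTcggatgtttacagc

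The 5 guide strands, miR-30b-5p and miR-30d-5p included, shared the seed GTAAACA and were identical over their first 11 bases. No other listed miRNA carried that seed. miR-30a-5p and miR-30e-5p differed by C13T, counted from 1 at the 5′ end with the base of miR-30a first, and miR-30a-5p and miR-30d-5p also differed at 1 base. miR-30b-5p and miR-30c-5p were identical over their first 18 bases. miR-30a-3p and miR-30e-3p differed by G18A and shared the seed TTTCAGT with miR-30d-3p and with no other listed miRNA. The rule for reads that match several members is not stated in the sources used here, which makes the level of each single member uncertain, while the sum over the guide strands is not affected by reads moved among them.

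The hairpins of the shown members lie in 2 pairs on GRCh38.p14. MIR30E (chr1:40754355-40754446) and MIR30C1 (chr1:40757284-40757372) lie on the plus strand with 2837 bases between them, both within an intron of NFYC, which encodes a subunit of the CCAAT-binding factor NF-Y and is read from the same strand. MIR30C2 (chr6:71376960-71377031) and MIR30A (chr6:71403551-71403621) lie on the minus strand with 26519 bases between them, both in introns of the long non-coding RNA gene LINC00472 on the same strand. Host genes are from GENCODE release 29, also on GRCh38. miR-30c-5p is encoded identically at MIR30C1 and MIR30C2, so its reads cannot be assigned to a locus, whereas the 3p arms of the 2 miR-30c hairpins differ in sequence and can be.

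The libraries held between 10473400 and 10769990 reads in the total that sets the per-million scale, and the share of it that fell on listed miRNAs was 16.3% for CC, 23.2% for Mock and 20.5% for RR. Levels are given as rpm, reads per 1000000 reads of that total, at which 1 read is worth 0.0929 to 0.0955 rpm. All 8 of 8 squamous epithelial marker miRNAs, such as miR-205-5p, were detected in every library, with summed levels of 39032 rpm in CC, 30009 in Mock and 45502 rpm in RR. Leukocyte markers stayed at or below 1.98 rpm in sum (3 of 4 listed), mesenchymal markers between 5.64 and 6.49 rpm (3 of 4 listed) and the hepatic marker miR-122-5p between 2.96 and 5.45 rpm. Endothelial markers (2 of 2) summed to between 55.2 and 81.9 rpm and muscle markers (3 of 3) to between 341 and 408 rpm. The erythroid markers (4 of 4 listed) summed to 9.47 rpm in CC and 12.2 in RR, with miR-144-3p and miR-144-5p at 0 reads in both, but to 408 rpm in Mock, where all 4 were detected. Mock over CC ratios also followed base composition, and so did RR over Mock ratios. Across the 208 miRNAs whose mean reached 10 rpm, log2 ratio and GC content had a Spearman correlation of -0.55 for Mock over CC. It was 0.60 for RR over Mock and 0.05 for RR over CC. It is a description across miRNAs that share their libraries.

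The family was led by hsa-miR-30c-5p in every library. miR-30c-5p, known as a repressor of the matrix gene CTGF in heart muscle, measured 1380 rpm in CC, 1556 in Mock and 1414 rpm in RR, which placed it between the 22nd and the 26th of all listed miRNAs. hsa-miR-30d-5p, reported to target the glycosyltransferase gene GALNT7 in melanoma, followed at 336 rpm in CC, 409 in Mock and 456 rpm in RR. hsa-miR-30a-5p, the member first tied to BECN1 and SNAI1, measured 89.5 rpm in CC, 163 in Mock and 115 rpm in RR. Per library total these 3 guide strands were thus lowest in CC, and only miR-30d-5p was highest in RR. As a share of listed miRNA reads, miR-30c-5p was instead highest in CC, with log2 ratios of -0.30 in RR over CC and -0.34 in Mock over CC. On that scale miR-30d-5p was lowest in Mock, at -0.23 in Mock over CC. miR-30a-5p was highest in Mock, at 0.35 in Mock over CC, while CC and RR were nearly level, at 0.03 in RR over CC. With median-ratio scaling the RR over CC value of miR-30a-5p was -0.02. In bulk RNA such as this, fewer cells with a miRNA and fewer copies per cell cannot be told apart.

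hsa-miR-30b-5p measured 39.9 rpm in CC, 42.4 in Mock and 49.0 rpm in RR. hsa-miR-30e-5p was the rarest member, with 3.99 rpm in CC (43 reads), 9.78 in Mock (104 reads) and 6.02 rpm in RR (63 reads). Its mean of 6.60 rpm lay under the 10 rpm set as the minimum for counting, which the other 6 members passed. Of the 3p arms, hsa-miR-30a-3p measured 208 rpm in CC, 269 in Mock and 273 rpm in RR. hsa-miR-30e-3p, reported to target the NF-kB inhibitor gene NFKBIA, measured 71.4 rpm in CC, 64.9 in Mock and 86.5 rpm in RR. The order of the 7 members was the same in the 3 libraries, from miR-30c-5p through miR-30d-5p, miR-30a-3p, miR-30a-5p, miR-30e-3p and miR-30b-5p to miR-30e-5p, and in none of them did the exact 95% Poisson intervals of neighbours in that order overlap. The members are 22 or 23 bases long, so these levels need no length correction, but ligation favours some sequences over others and was not corrected. Intervals cover counting error only, since PCR copies without molecular identifiers are not independent molecules.

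**Figure D1:**
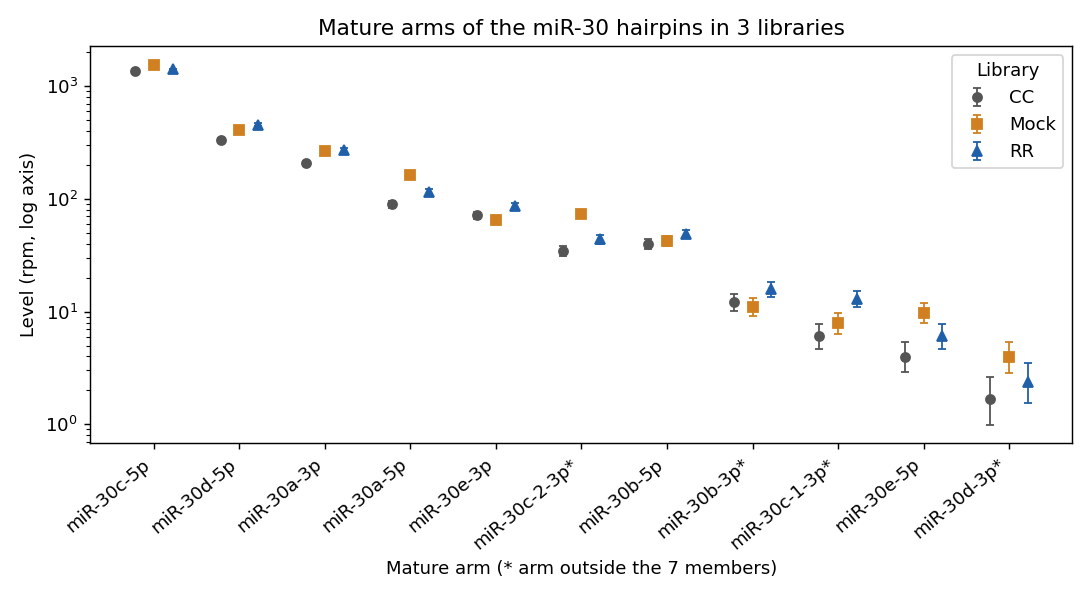
Level in rpm (log axis) of the 11 listed mature arms of the miR-30 hairpins in CC, Mock and RR, with exact 95% Poisson intervals as bars; asterisks mark the 4 arms that are not among the 7 members. miR-30c-5p stands at the top in all libraries, at 1380 to 1556 rpm, and miR-30e-5p is the lowest member, at 3.99 to 9.78 rpm.

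Summed over the 5 guide strands, the seed GTAAACA was present at 1850 rpm in CC (95% Poisson interval 1824 to 1876), 2180 in Mock (2152 to 2209) and 2041 rpm in RR (2013 to 2068). As a share of listed miRNA reads the sum made up 1.14% for CC, 0.941% for Mock and 0.995% for RR. The level per library total was thus lowest in CC, whereas the share among miRNA reads was highest there.

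The make-up of this guide pool is the same under any scale that multiplies a whole library by 1 factor, but not with the GC trend removed. miR-30c-5p gave 74.6% of guide-strand reads in CC (exact Clopper-Pearson 95% interval 74.0% to 75.2%), 71.4% in Mock (70.8% to 71.9%) and 69.3% in RR (68.7% to 69.9%). miR-30d-5p gave 18.2% in CC, 18.8% in Mock and 22.4% in RR (21.8% to 22.9%). There were 4.11 reads of miR-30c-5p for each of miR-30d-5p in CC (3.96 to 4.26), 3.80 in Mock (3.68 to 3.93) and 3.10 in RR (3.00 to 3.20), so the intervals of the 3 libraries did not overlap and the ratio was lowest in RR. On the log2 scale after adding 1 rpm, the ratio of miR-30c-5p to miR-30d-5p differed by -0.40 in RR over CC, by -0.11 in Mock over CC and by -0.29 in RR over Mock. With the GC trend removed these differences were -0.39, -0.30 and -0.09, so that the gap between Mock and the other libraries depended on that trend. miR-30a-5p held 4.84% of the pool in CC, 7.47% in Mock (7.14% to 7.82%) and 5.64% in RR. miR-30b-5p held 1.95% to 2.40%, and miR-30e-5p 0.216% in CC, 0.449% in Mock and 0.295% in RR.

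**Figure D2:**
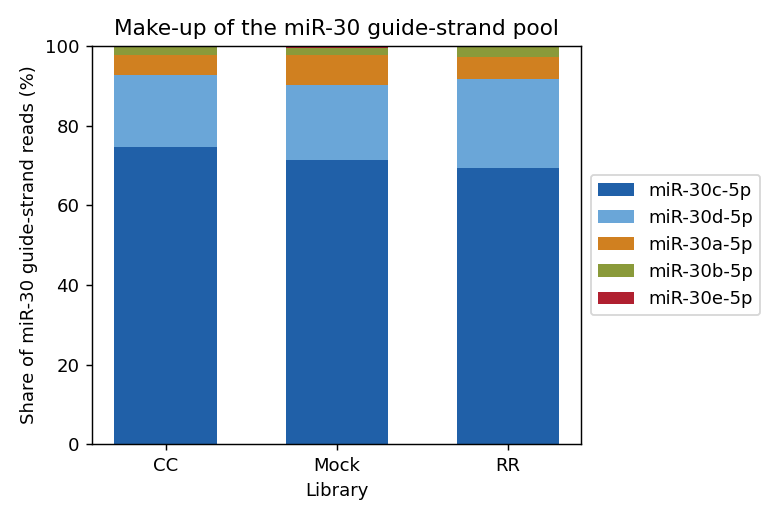
Share of the miR-30 guide-strand reads (%) taken by each of the 5 guide strands, as bars stacked to 100 for the libraries CC, Mock and RR. miR-30c-5p takes 74.6%, 71.4% and 69.3%, and the band of miR-30d-5p is widest in RR, at 22.4%.

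At MIR30A and MIR30E the 3p arm, not the presumed guide, gave more reads in every library. The hairpins are shown 5′ to 3′ from RefSeq (GRCh38.p14), with the 5p and then the 3p arm in capitals, because reads of both arms come from the same transcript.
MIR30A: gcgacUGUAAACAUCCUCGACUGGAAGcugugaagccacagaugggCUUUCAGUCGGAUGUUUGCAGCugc
MIR30E: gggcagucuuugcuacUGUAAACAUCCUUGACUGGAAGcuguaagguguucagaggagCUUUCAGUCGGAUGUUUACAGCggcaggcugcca

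For miR-30a there were 2.32 reads of the 3p arm for each of the 5p arm in CC (2.15 to 2.51), 1.65 in Mock (1.55 to 1.75) and 2.37 in RR (2.22 to 2.54). For miR-30e there were 17.9 in CC (13.2 to 24.9), 6.63 in Mock (5.39 to 8.23) and 14.4 in RR (11.1 to 18.9). At both hairpins the intervals of CC and RR overlapped and that of Mock lay below both. The 5p arm led elsewhere in the family. For miR-30b there were 3.31 reads of the 5p arm for each of the 3p arm in CC, 3.82 in Mock and 3.11 in RR, with overlapping intervals.

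For miR-30d the 5p arm led by 201 to 1 in CC, 104 to 1 in Mock and 191 to 1 in RR, with 18, 42 and 25 reads of miR-30d-3p. miR-30c-5p led the summed 3p arms of its 2 hairpins by 34.3 to 1 in CC (31.1 to 37.8), 19.0 to 1 in Mock (17.7 to 20.3) and 24.8 to 1 in RR (22.9 to 27.0). Relative to CC, the library labelled Mock thus held fewer 3p reads per 5p read at miR-30a and miR-30e and more at miR-30c. Among the 117 hairpins with both arms listed whose summed mean reached 10 rpm, the 3p arm was the higher one in all libraries at 52 (44.4%), so a leading 3p arm was common in these libraries.

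**Figure D3:**
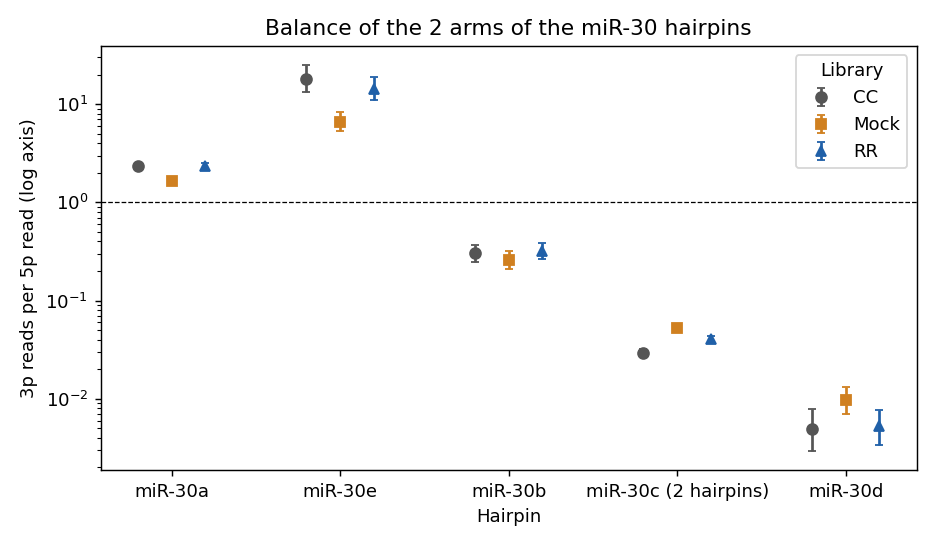
Reads of the 3p arm for each read of the 5p arm (log axis) at the miR-30 hairpins in CC, Mock and RR, with exact 95% intervals as bars and a dashed line at equal reads; the 2 miR-30c hairpins share a 5p arm and are drawn as 1. miR-30a and miR-30e lie above the line in all libraries, with Mock lowest at 1.65 and 6.63.

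On the log2 scale after adding 1 rpm, the 3p over 5p ratio of miR-30e differed by -1.25 between Mock and CC, being lower in Mock, and that of miR-30a by -0.49. A difference of 1 or more in size was found at 18.8% of the 117 hairpins for Mock over CC and at 1.71% for RR over CC, and of miR-30a, miR-30b, miR-30d and miR-30e only miR-30e reached it, in Mock over CC (1 of 4) and in RR over Mock (1.03, against 13.7% of hairpins). In RR over CC the 4 values lay between -0.22 and 0.07. The 5p arms of miR-30a and miR-30e have a lower GC content (45.5% and 40.9%) than their 3p arms (50% and 45.5%). With a linear trend of level on GC content removed from each library, the differences of Mock from CC were -1.12 for miR-30e and -0.36 for miR-30a. The difference of miR-30e in RR over Mock was then 0.89, no longer 1 or more. Outside these 4, the ratio of miR-30c-2-3p to miR-30c-5p differed by 0.92 in Mock over CC, and by 1.11 with the trend removed. In RR over CC it differed by 0.32. The ratio of miR-30c-1-3p to miR-30c-5p differed by 0.96 in RR over CC, and by 0.93 with the trend removed. That value rests on 65 reads of miR-30c-1-3p in CC and 136 in RR. In Mock over CC the same ratio differed by 0.17, and by 0.49 with the trend removed. The erythroid markers also stood high in Mock, and their part in the differences between Mock and the other libraries was not tested.

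Of the arms outside the members, miR-30c-2-3p, cut from MIR30C2, measured 34.3 rpm in CC, 74.2 in Mock and 44.0 rpm in RR. miR-30c-1-3p, cut from MIR30C1, measured 6.04 rpm in CC, 7.90 in Mock and 13.0 rpm in RR. The first was highest in Mock and the second in RR, and miR-30c-2-3p gave 5.68 reads for each of miR-30c-1-3p in CC (4.35 to 7.51), 9.39 in Mock (7.49 to 11.9) and 3.39 in RR (2.79 to 4.14). The 3p arms of neighbouring hairpins did not keep a fixed ratio across all libraries, and the ratios that follow were not adjusted for GC content. miR-30a-3p gave 6.07 reads for each of miR-30c-2-3p in CC (5.43 to 6.79), 3.62 in Mock (3.35 to 3.93) and 6.2 in RR (5.61 to 6.85), with only the interval of Mock apart. In the NFYC intron, miR-30e-3p gave 11.8 reads for each of miR-30c-1-3p in CC (9.18 to 15.5), 8.21 in Mock (6.54 to 10.4) and 6.66 in RR (5.56 to 8.04). There the intervals of CC and RR were apart and that of Mock overlapped both. miR-30b-3p stood at 12.1, 11.1 and 15.8 rpm in CC, Mock and RR.

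RR over CC asks how radioresistant cells differ from untreated ones, and the miR-30 members were close between both libraries. All 7 ratios lay above 1, as did those of 182 of the 208 miRNAs, and they ranged from 1.02-fold to 1.51-fold. None of the 6 members that passed the filter reached 2-fold, against 1.44% of all 208 miRNAs. miR-30d-5p was 1.36-fold higher in RR (1.30 to 1.42), miR-30a-3p 1.31-fold (1.24 to 1.39), miR-30a-5p 1.29-fold (1.18 to 1.40), miR-30b-5p 1.23-fold (1.08 to 1.40) and miR-30e-3p 1.21-fold (1.10 to 1.34). miR-30c-5p had a ratio of 1.02 (1.00 to 1.05), and miR-30e-5p one of 1.51 that rests on 43 and 63 reads (1.01 to 2.27). These ratios are to be read against a median of all 208 miRNAs of 1.28-fold, or 0.36 on the log2 scale. Under median-ratio scaling 3 of the 7 log2 ratios were above 0 and 4 below. Relative to that median of all miRNAs 4 members lay above and 3 below. The median log2 ratio of the 7 members was also 0.36, and that of the 6 past the filter was 0.32.

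miR-30c-5p lay furthest from the rest of the family in RR over CC. Its log2 ratio of 0.04 was 0.32 under the median of all miRNAs, with 29 of the 208 lower and 178 higher. The summed guide strands followed their main member, at 1.10-fold (1.08 to 1.12), or 0.14 on the log2 scale. With division by the median ratio the sum stood at -0.24, scaled without the 10 most abundant miRNAs at -0.18 and as a share of listed miRNA reads at -0.19, so its direction depended on the scale. miR-30c-1-3p had the highest ratio of the 11 arms, 2.15-fold (1.59 to 2.94) on 65 and 136 reads. Its mean of 8.97 rpm lay under the filter of 10 rpm, and its log2 ratio after adding 1 rpm was 0.99, short of 2-fold.

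Mock over CC asks how cells after 1 exposure differ from untreated ones, and here the members spread further apart. None of the 6 members past the filter reached 2-fold, against 15.9% of the 208 miRNAs. miR-30a-5p came closest, 1.82-fold higher in Mock (1.68 to 1.97). The rarer miR-30e-5p, under the filter, was 2.45-fold higher (1.70 to 3.58). Its log2 ratio was 1.11 after adding 1 rpm, which lowers the ratio of such a rare miRNA, and it counts as past 2-fold only where no filter is set. Without a filter 5.22% of the 1149 miRNAs, most of which lay under it, were past 2-fold in either direction. Of the 208 miRNAs past the filter 12% were 2-fold higher in Mock, and of the 80 of these with a GC content of 45.5% or less 20%. miR-30a-3p was 1.29-fold higher (1.22 to 1.37), miR-30d-5p 1.22-fold (1.17 to 1.27) and miR-30c-5p 1.13-fold (1.10 to 1.15). The intervals of miR-30b-5p, 1.06-fold (0.929 to 1.22), and miR-30e-3p, 0.909-fold (0.819 to 1.01), included no difference. As deposited, 6 of the 7 log2 ratios were above 0, as were those of 136 of the 208 miRNAs. The directions of several members depended on the scale: 3 were above 0 with median-ratio scaling and 2 as a share of listed miRNA reads. On those scales miR-30d-5p stood at -0.02 and -0.23, and miR-30c-5p at -0.13 and -0.34.

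The 2 members with the highest ratios, miR-30e-5p and miR-30a-5p, differ from each other at 1 base, and misassigned reads between them cannot be told apart from their own. The median log2 ratio of the 7 members was 0.28, and that of the 6 past the filter 0.23, against 0.28 for all 208 miRNAs. The 80 miRNAs with a GC content of 45.5% or less had a median of 0.65. Members in that GC range were miR-30a-5p (0.86 on the log2 scale), miR-30b-5p (0.09), miR-30c-5p (0.17), miR-30e-5p (1.11) and miR-30e-3p (-0.14). miR-30b-5p, miR-30c-5p and miR-30e-3p thus lay below the median of miRNAs with low GC content, and with the GC trend removed they stood at -0.18, -0.02 and -0.27. miR-30a-5p and miR-30e-5p lay above that median and stood at 0.73 and 0.85 with the trend removed. The let-7 guide strands, also a family of near-identical sequences, had a median of 0.81 in Mock over CC with 4 of 9 members 2-fold higher, against 12% of the 208 miRNAs and 20% of the 80 with low GC content. The miR-200 family, which holds back ZEB1 and ZEB2 in epithelia, had a median of 0.54 with 1 of 5, which is the share among miRNAs of low GC content, and the miR-181 family had 2 of 4 members past the filter and none 2-fold higher. These differences between families were not tested.

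The summed guide strands were 1.18-fold higher in Mock than in CC (1.16 to 1.20), or 0.24 on the log2 scale. The sum stood at -0.07 with division by the median ratio and at -0.27 as a share of listed miRNA reads. Among the other arms, miR-30c-2-3p was 2.17-fold higher in Mock (1.91 to 2.46) and miR-30d-3p 2.36-fold (1.33 to 4.36) on 18 and 42 reads. The mean of miR-30d-3p, 2.67 rpm, lay under the filter, and its log2 ratio after adding 1 rpm was 0.89, short of 2-fold.

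**Figure D4:**
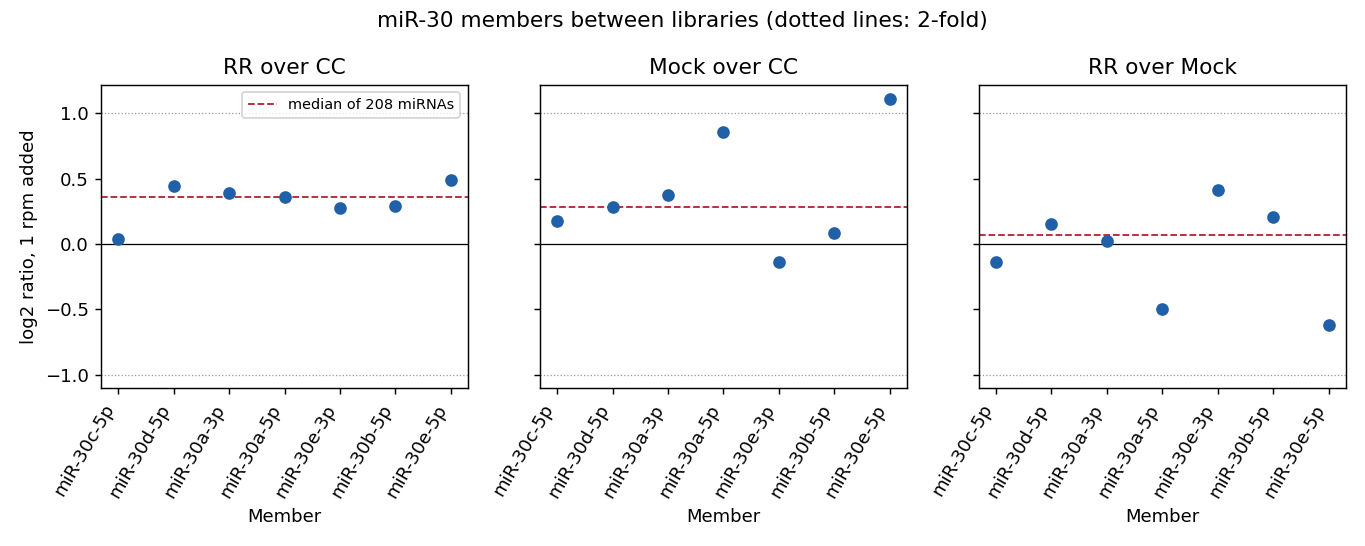
Log2 ratio, after adding 1 rpm, of the 7 members in RR over CC, Mock over CC and RR over Mock; the dashed line is the median of the 208 miRNAs whose mean reached 10 rpm and the dotted lines mark 2-fold. Members lie between 0.04 and 0.49 in RR over CC, and only miR-30e-5p in Mock over CC, at 1.11, passes a dotted line.

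RR over Mock sets repeated exposure against a single one, and shares its libraries with the comparisons above. miR-30a-5p was lower in RR, with a ratio of 0.706 (0.655 to 0.760), as was miR-30e-5p, with 0.615 (0.442 to 0.849), and miR-30c-5p, with 0.909 (0.889 to 0.929). miR-30e-3p was 1.33-fold higher in RR (1.21 to 1.47), miR-30b-5p 1.15-fold (1.02 to 1.31) and miR-30d-5p 1.11-fold (1.07 to 1.16). miR-30a-3p had a ratio of 1.01 (0.962 to 1.07). The 80 miRNAs with a GC content of 45.5% or less had a median log2 ratio of -0.29. With the GC trend removed, the log2 ratio of miR-30a-5p went from -0.50 to -0.36 and that of miR-30e-5p from -0.62 to -0.34. Those of miR-30b-5p and miR-30e-3p went from 0.20 to 0.49 and from 0.41 to 0.55. As a share of listed miRNA reads and with the GC trend removed, the log2 ratio of miR-30c-5p was 0.04 and 0.07, on the other side of no difference. None of the 6 members past the filter reached 2-fold, against 13% of the 208 miRNAs, and 3 of the 7 lay above the median of all miRNAs, 1.05-fold. The summed guide strands had a ratio of 0.936 (0.919 to 0.953), or -0.10 on the log2 scale, and stood at 0.08 as a share of listed miRNA reads and at 0.07 with the GC trend removed.

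**Figure D5:**
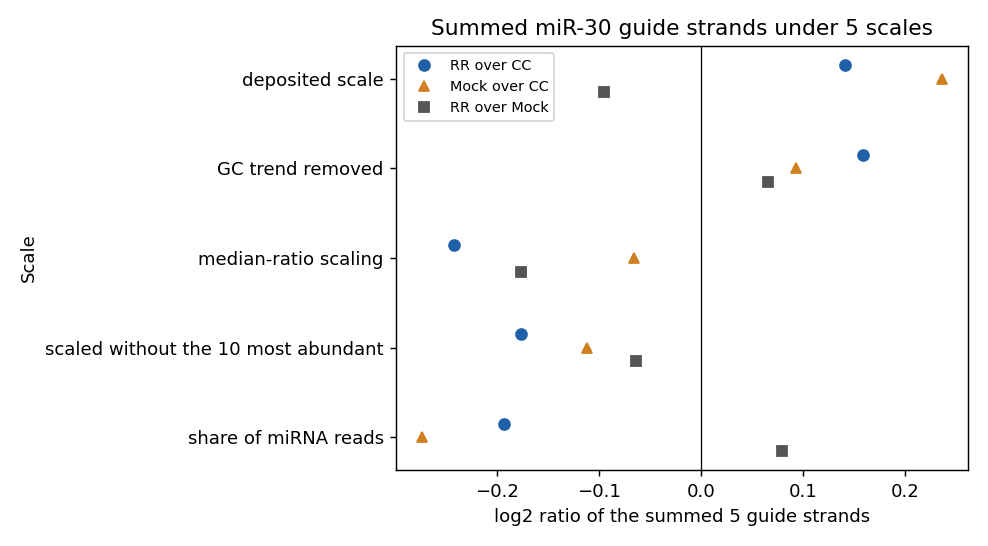
Log2 ratio of the summed 5 guide strands (horizontal axis) in the 3 comparisons, on the deposited scale and 4 others. The sum in RR over CC is 0.14 on the deposited scale and -0.24, -0.18 and -0.19 on the 3 scales set by the listed miRNAs, and its value furthest from 0 in any comparison is -0.27, in Mock over CC as a share of listed miRNA reads.

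The miRNAs whose levels over the 3 libraries were most like the guide-strand sum were sought among 89 others whose mean reached 100 rpm, by the Euclidean distance of log2 levels after each was centred on its own mean. They were miR-128-3p (distance 0.08), miR-23a-3p (0.10) and miR-23b-3p (0.10), against a median distance of 0.39. miR-128-3p measured 397 rpm in CC, 481 in Mock and 473 rpm in RR. With 3 libraries such a likeness is a description only.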

How the data were processed

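Small RNA libraries of CAL-27 clones were made with a ligation-based kit and sequenced on an Illumina NovaSeq, per the labels' protocols. The submitters' processing notes list Bowtie and GRCh38 only; how reads were trimmed, matched and shared among several matches is not stated in the sources used here. The authors call the deposited values TPM, but they behave as RPM: 100% of values were whole multiples, within 0.01 of a read, of 1 step per library, so reads and totals were recovered. The deposited table also gives each miRNA's sequence.

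Columns were matched to libraries through the treatment tag. Computed were exact 95% Poisson intervals of levels, Clopper-Pearson intervals of shares and ratios, and log2 ratios after adding 1 rpm; counts cover the 208 miRNAs whose mean reached 10 rpm and differences of 2-fold or more. With 1 library per group no test or count model was run. Members and lists were chosen with earlier results of these data known. Named were the 7 members, the 4 other arms of their hairpins, listed miRNAs that share a seed with them, and the 3 nearest in profile. RefSeq mature entries were matched by name for 5 of the 7 members. The computation of the interval and the counting rule was checked on simulated reads. These were Poisson draws, as the interval assumes, so PCR copies, reads matching several members and variation between clones were not covered. Alternatives were pseudocounts of 0.1 and 10, no filter or a mean of 100 rpm, 1.5-fold and 4-fold, the 4 other scales and the sum over all 11 arms. Tools were Python 3.11.15 with scipy 1.17.1, numpy 2.4.6 and pandas 2.3.3, and matplotlib 3.10.9 for figures.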

Additional observations from a re-analysis of the deposited data

How the results depend on the processing

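The log2 ratio of the summed miR-30 guide strands changed sign with the scale in all 3 comparisons. In RR over CC it was 0.14 as deposited, -0.24 with median-ratio scaling, -0.18 when scaled without the 10 most abundant miRNAs, -0.19 as a share of listed miRNA reads and 0.18 over all 11 arms. In Mock over CC it was 0.24 as deposited, -0.066, -0.11 and -0.27 on the same 3 scales, and 0.093 with the GC trend removed. In RR over Mock it was -0.10 as deposited, -0.18, -0.064 and 0.080 on these scales, and 0.066 with the GC trend removed. Each scale moves all miRNAs of a library alike, except the GC trend, which moves them by base composition; which scale is right was not tested. Values not given here stayed within the counting interval. The count of members past 2-fold was 0 in each comparison and stayed 0 under all alternatives run in RR over CC and RR over Mock. In Mock over CC it became 1 with no filter, through miR-30e-5p, and 1 at 1.5-fold, through miR-30a-5p. Ratios between arms or members within a library do not depend on the 3 scales. Depth limits miR-30e-5p, with 43 to 104 reads, and miR-30d-3p, with 18 to 42. No paired analysis was possible because each group had 1 library.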
